A study of Homo sapiens with 10 samples.

Results

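Transcripts of 41 genes that act at the G1/S transition and in DNA synthesis were followed in SKBR3 cells. The genes were listed by function and cover cyclin E and CDK2, the activator E2F factors, origin recognition and firing, the sliding clamp and its loader, single-strand binding, the replicative polymerases, flap removal and ligation, nucleotide supply, and chromatin steps linked to replication. The MCM helicase was not in the list. Each gene was read from the probe set with the highest mean log2(signal + 16) over the 10 arrays. All 41 genes had a probe set and all passed the filter on low signals, among 19775 genes with a probe set and 12022 genes tested.

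SKBR3 is an established human breast carcinoma line with amplified HER2, and by its labels it carries the mutant p53R175H. The groups were cells transfected with siRNA against p53 (p53i) and cells transfected with siRNA against LacZ (LacZi), a bacterial gene that serves as the negative control. Within each siRNA, 1 array was taken after 8 h, 1 after 20 h and 1 after 50 h with 100 nM calcitriol, the active hormone made from vitamin D (abbreviated D3), and 2 arrays were taken from untreated cells. All groups share the cell line, its mutant p53, charcoal-stripped serum and a transfection. The design asks how mutant p53 and D3 each change expression in these cells. All cells came from 1 line. No untreated array is labelled with a D3 time, so an effect of D3 and one of longer culture cannot be told apart. D3 was added 48 h after transfection by the series text and 24 h after it by the sample text. The target of the siRNA was not analysed here, and its knockdown was therefore not checked.

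As background, a cell commits to S phase when cyclin E with CDK2 and the CDC25A phosphatase relieve the retinoblastoma protein's hold on E2F factors, which then switch on genes for replication. Origins bound by the origin recognition complex fire once CDC45 and the GINS complex join the helicase. Polymerases then copy the strands while held by the ring-shaped clamp PCNA, which the RFC complex loads onto DNA. Calcitriol is known to slow the growth of many breast cancer lines, acting through the vitamin D receptor.

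The arrays were scaled alike and had median signals of 35.7 to 44.3. CYP24A1, which encodes the enzyme that breaks down calcitriol and is the standard sign of vitamin D receptor activity, read 4234 to 6476 on the 6 D3 arrays and 23.7 to 40.0 on the 4 untreated arrays. The luminal and HER2 markers ERBB2, GRB7, KRT8, KRT18, KRT19, EPCAM and GATA3 passed the filter. CDH1, which SKBR3 cells are known to have lost, was below it. Of the estrogen receptor markers that SKBR3 cells should lack, PGR and GREB1 were also below the filter. ESR1 passed it, with signals of 20.1 to 60.2 over the arrays. Of 13 measured markers of other cells, 4 passed the filter, COL1A1, PECAM1, CD3E and the basal keratin KRT5, of which KRT5 was called higher with D3. The other 9 (PTPRC, CD14, COL3A1, DCN, VWF, ALB, APOA1, KRT14 and VIM) had means below it, though CD14 read 51.9, 78.0 and 127 on the LacZi arrays at 8, 20 and 50 h with D3, against 15.1 and 22.1 in untreated LacZi cells. The summed signal of these 13 was 566 to 974 on the D3 arrays and 572 to 742 on the untreated arrays. Their part in the results was not tested. The ratio of 3' to 5' ACTB control signals, a measure of RNA integrity, was 5.41 ± 0.996 with D3 (SD, n = 6) and 5.24 ± 2.33 untreated (SD, n = 4). It was 6.22 ± 1.77 in p53i cells and 4.46 ± 0.523 in LacZi cells (SD, n = 5 each). The untreated p53i replicate 2 stood highest at 8.72, followed by the p53i array at 20 h with 7.11.

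Over the 3 D3 times together, 9 of 41 members were called lower and 0 higher (limma, adjusted p under 0.05), while 2.41% of the 12022 genes tested were called lower and 1.99% higher. The 9 were CDC45 and GINS2 of the origin-firing machinery, the clamp loader subunits RFC2, RFC3 and RFC4, the single-strand binding subunit RPA3, the flap endonuclease FEN1, and the nucleotide enzymes RRM1 and TYMS. At an unadjusted p under 0.05, 25 members were lower and 0 higher, against backgrounds of 10.9% and 8.51%. In bulk RNA, fewer cells in S phase and less of a transcript per cell cannot be told apart. The median D3 difference over the 41 members was -0.29 on the log2 scale and over all genes it was -0.0048, and 34 of 41 members lay below 0, against 51% of all genes.

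In 8 members all 6 D3 arrays lay below all 4 untreated arrays, namely CDC45, GINS2, PCNA, RFC4, RPA3, POLA2, FEN1 and SLBP, against 2.47% of all genes. No member had all D3 arrays above the untreated ones, against 1.88% of all genes.

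**Figure D1:**
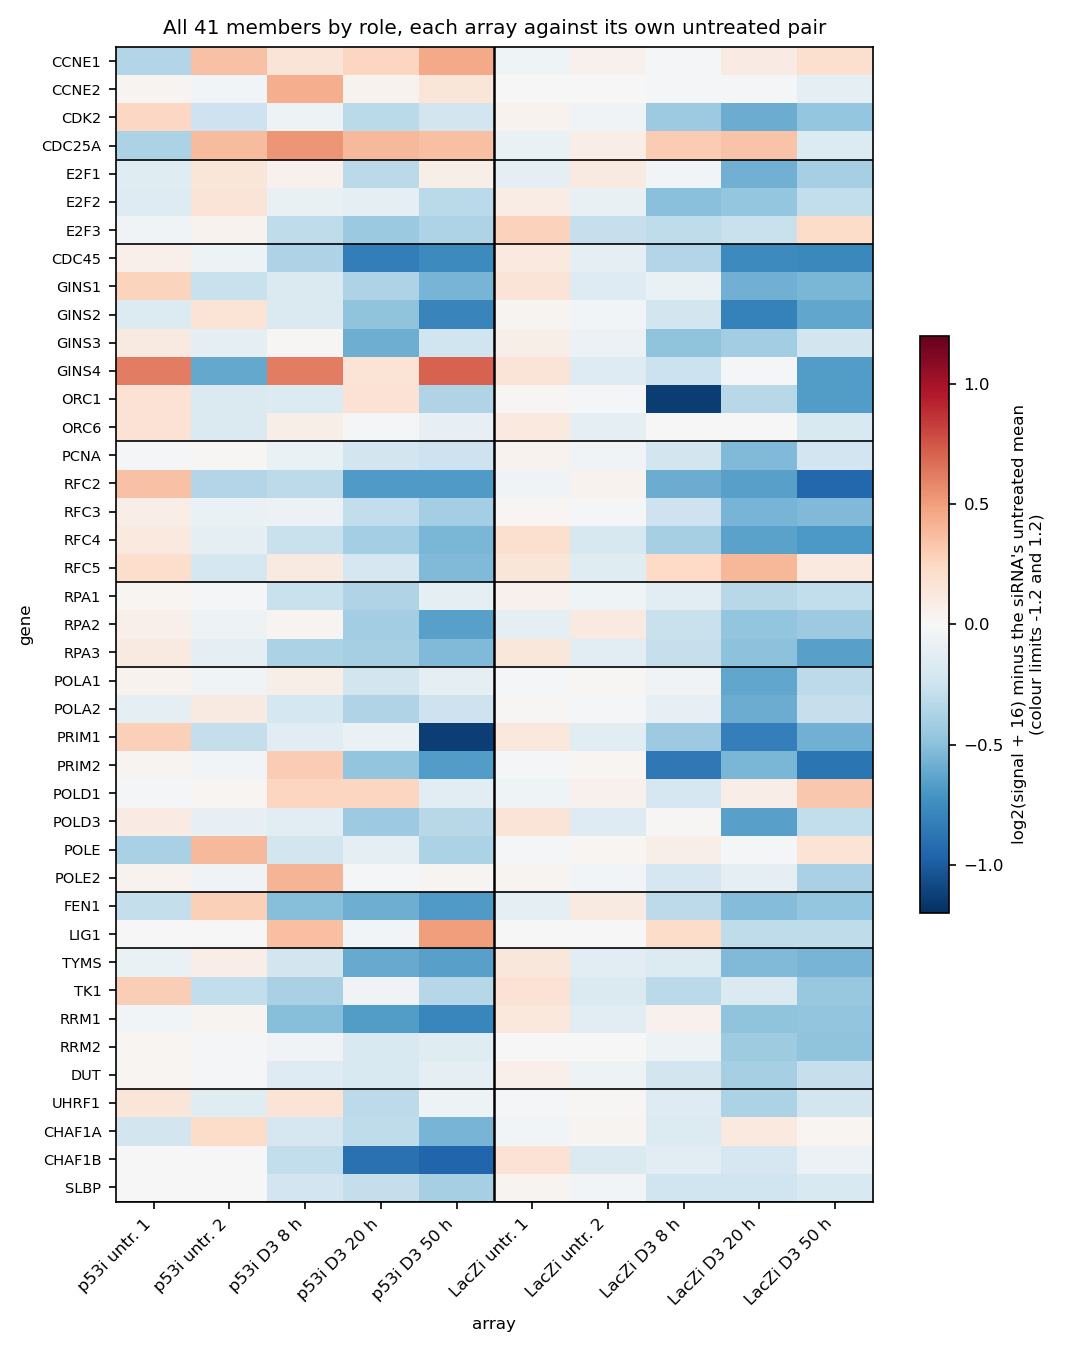
Colour shows log2(signal + 16) on each array minus the mean of the untreated pair with the same siRNA, for the 41 members (rows, grouped by role) on the 10 arrays (columns), with blue for lower and red for higher. Blue prevails on the D3 arrays at 20 and 50 h with both siRNAs, while CCNE1 and CDC25A are red on most D3 arrays.

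Promoters of the 6 members with the largest called falls are shown because the group is known for control by E2F factors, which bind near the start site. Sequences are RefSeq promoters on GRCh38.p14, each running from 250 bases before to 50 bases after the gene's start, 5′ to 3′ on the gene's strand. Capitals mark matches to the 4 spellings of the E2F motif searched, which were TTCGCGC, then TTGGCGC, then TTCCCGC and lastly TTGCCGC, and to the CCAAT box, on either strand. The RFC2 window is chr7:74254350-74254649 (minus strand), that of CDC45 is chr22:19479670-19479969 (plus strand) and that of GINS2 is chr16:85688905-85689204 (minus strand). The FEN1 window is chr11:61792661-61792960 (plus strand), that of RFC4 is chr3:186806433-186806732 (minus strand) and that of RRM1 is chr11:4094435-4094734 (plus strand).
RFC2: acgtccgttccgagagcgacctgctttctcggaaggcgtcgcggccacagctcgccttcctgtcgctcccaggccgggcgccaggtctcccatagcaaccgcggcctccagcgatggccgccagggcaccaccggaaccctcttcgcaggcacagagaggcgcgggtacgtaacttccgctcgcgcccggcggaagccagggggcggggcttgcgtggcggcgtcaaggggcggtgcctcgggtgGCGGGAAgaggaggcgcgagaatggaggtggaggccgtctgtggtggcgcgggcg
CDC45: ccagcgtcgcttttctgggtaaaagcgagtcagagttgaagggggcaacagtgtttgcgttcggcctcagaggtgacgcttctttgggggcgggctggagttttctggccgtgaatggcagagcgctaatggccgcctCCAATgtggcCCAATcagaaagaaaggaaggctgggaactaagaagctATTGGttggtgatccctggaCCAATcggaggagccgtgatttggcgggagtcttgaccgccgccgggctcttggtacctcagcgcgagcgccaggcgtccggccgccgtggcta
GINS2: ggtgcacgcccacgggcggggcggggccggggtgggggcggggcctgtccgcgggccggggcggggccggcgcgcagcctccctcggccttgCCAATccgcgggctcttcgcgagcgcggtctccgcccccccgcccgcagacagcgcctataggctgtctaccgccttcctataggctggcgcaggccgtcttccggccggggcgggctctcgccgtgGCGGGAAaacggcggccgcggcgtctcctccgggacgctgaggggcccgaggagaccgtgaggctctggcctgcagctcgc
FEN1: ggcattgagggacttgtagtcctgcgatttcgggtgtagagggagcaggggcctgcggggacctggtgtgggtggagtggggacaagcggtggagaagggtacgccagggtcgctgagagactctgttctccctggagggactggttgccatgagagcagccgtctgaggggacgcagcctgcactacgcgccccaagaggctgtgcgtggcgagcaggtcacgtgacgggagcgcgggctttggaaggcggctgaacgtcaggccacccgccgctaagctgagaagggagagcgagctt
RFC4: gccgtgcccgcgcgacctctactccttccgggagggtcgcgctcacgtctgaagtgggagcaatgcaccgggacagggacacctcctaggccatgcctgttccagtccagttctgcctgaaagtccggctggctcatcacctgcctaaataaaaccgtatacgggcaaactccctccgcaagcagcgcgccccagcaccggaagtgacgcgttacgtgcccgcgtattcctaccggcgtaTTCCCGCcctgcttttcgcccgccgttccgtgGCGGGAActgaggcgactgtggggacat
RRM1: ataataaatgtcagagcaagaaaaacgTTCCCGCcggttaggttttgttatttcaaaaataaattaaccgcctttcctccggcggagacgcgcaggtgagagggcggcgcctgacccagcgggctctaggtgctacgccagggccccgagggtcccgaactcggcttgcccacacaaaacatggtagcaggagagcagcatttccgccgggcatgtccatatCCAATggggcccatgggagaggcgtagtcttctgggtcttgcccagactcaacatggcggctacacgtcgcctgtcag

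RFC2 and GINS2 each held 1 E2F match close to the start, RFC4 held 2 that flank it, and RRM1 held 1 at 223 bases before it. CDC45 held 4 CCAAT boxes and no match to the E2F letters searched, and FEN1 held neither. Of the 41 members, 35 matched a RefSeq promoter. An E2F match was found in 25 of these 35 (71.4%), against 13.1% of all 27305 promoters and 20.3% of the 9762 promoters of genes tested. A CCAAT box was found in 18 of 35 (51.4%), against 35.7% of all promoters and 37.3% of those of genes tested. The cell-cycle homology region TTTGAA was found in 2 of 35 (5.71%), against 15.4% and 9.86%. A match to the DR3 type of vitamin D response element was found in 0 of 35, against 0.0769% and 0.113%. All motifs were searched on both strands, and the E2F letters TTGGCGC can overlap a CCAAT box read on the opposite strand. Of the 8 called members with a promoter, 6 held an E2F match, so members with and without these letters were among those that fell. A match is a run of letters and not a measured binding site.

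Of the origin recognition and firing genes, 2 of 7 were called lower. CDC45 signals in p53i cells were 371, 266 and 279.7 at 8, 20 and 50 h with D3, against 508 and 463 untreated. In LacZi cells they were 383, 284 and 282 with D3, against 536 and 455 untreated. CDC45, the helicase co-factor, was lower on every D3 array than on any untreated array, and fell by 0.64 ± 0.10 on the log2 scale (SE, limma adjusted p = 0.00463). The GINS2 probe set read 517, 415 and 332 at the 3 D3 times in p53i cells, against 519 and 658 in the untreated pair. The LacZi arrays read 505, 328 and 377 with D3 and 603 and 577 untreated. GINS2, a subunit of the GINS complex, also had no overlap between D3 and untreated arrays, with a difference of -0.52 ± 0.11 (adjusted p = 0.0212). A dimmer GINS2 probe set read the other way, by 0.56, so the fall rests on the brighter one. GINS1 and GINS3 had differences of -0.39 ± 0.11 and -0.32 ± 0.14, short of the threshold (adjusted p = 0.0721 and 0.224). ORC1, the largest subunit of the origin recognition complex, had -0.42 ± 0.19, whereas ORC6 had -0.04 ± 0.09 and GINS4 0.09 ± 0.27. The GINS4 untreated p53i arrays read 107 and 36.6, the widest gap of any member between replicates.

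The clamp loader had 3 called subunits among the 5 genes of the clamp and its loader. For RFC2, the p53i arrays gave 861, 667 and 664 at 8, 20 and 50 h with D3 and 1374 and 841 without it. The LacZi arrays gave 790.3, 759 and 615 with D3 and 1163 and 1235 without it. With D3, RFC2 fell by 0.64 ± 0.12 (limma adjusted p = 0.0166), although the untreated p53i replicate 2 lay just below the p53i array at 8 h. With D3, RFC4 measured 1665, 1509 and 1363 in p53i cells in order of time, against 2175 and 1849.7 untreated. Its LacZi signals measured 1689, 1425 and 1375 with D3, against 2546 and 1946 untreated. All RFC4 signals with D3 lay below all untreated ones, and the difference was -0.49 ± 0.09 (adjusted p = 0.0149). The RFC3 probe set read 712, 604 and 561 at the 3 D3 times in p53i cells, against 788 and 708 in the untreated pair. The LacZi arrays read 834, 669.7 and 683 with D3 and 1012 and 976 untreated. RFC3 differed by -0.35 ± 0.08 (adjusted p = 0.0371). RFC5, a subunit of the same loader, had 0.02 ± 0.14, and its other probe sets above the filter had -0.25 and -0.18. PCNA, the clamp itself, was lower on all 6 D3 arrays than on all 4 untreated arrays, yet its difference of -0.25 ± 0.07 missed the threshold (adjusted p = 0.0669).

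Replication protein A coats single-stranded DNA as a trimer, and 1 of its 3 subunit genes was called over the 3 times. For RPA3, the p53i arrays gave 1701, 1683 and 1534 at 8, 20 and 50 h with D3 and 2403 and 2057 without it. The LacZi arrays gave 1979.9, 1699 and 1519 with D3 and 2630.2 and 2184 without it. RPA3 fell by 0.46 ± 0.08 (limma adjusted p = 0.0135) with no overlap between D3 and untreated arrays. RPA2 signals in p53i cells were 554, 403 and 339 at 8, 20 and 50 h with D3, against 567 and 519 untreated. In LacZi cells they were 566, 488 and 502 with D3, against 636 and 740.1 untreated. RPA2 had a difference of -0.37 ± 0.10 (adjusted p = 0.0592), and only its 20 and 50 h arrays lay below all untreated arrays. At 8 h its LacZi array lay below the untreated LacZi pair, while its p53i array lay within the untreated p53i range. RPA1 had -0.25 ± 0.08 (adjusted p = 0.0894).

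FEN1 removes the flaps of Okazaki fragments and LIG1 seals the nicks left behind. The FEN1 probe set read 1360.4, 1295 and 1210.3 at the 3 D3 times in p53i cells, against 1599.5 and 2375 in the untreated pair. The LacZi arrays read 1510.3, 1312 and 1366 with D3 and 1746 and 2039 untreated. Every FEN1 signal with D3 was below every untreated one, and the difference was -0.51 ± 0.11 (limma adjusted p = 0.0234). LIG1 had 0.07 ± 0.12. Within p53i cells LIG1 signals with D3 were 585, 441 and 643 against 451 and 450.2 untreated, and within LacZi cells 533, 365 and 367 against 457 and 454.

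Among 5 nucleotide supply genes, 2 were called lower. RRM1 encodes the large subunit of ribonucleotide reductase, which makes deoxyribonucleotides. With D3, RRM1 measured 1840.4, 1645 and 1515 in p53i cells in order of time, against 2562 and 2693 untreated. Its LacZi signals measured 2645, 1816 and 1835 with D3, against 2779.8 and 2333 untreated. Only the LacZi array at 8 h reached the untreated range, and the RRM1 difference was -0.48 ± 0.10 (limma adjusted p = 0.0186). TYMS encodes thymidylate synthase, the source of new thymidylate. TYMS signals in p53i cells were 2123, 1623 and 1569 at 8, 20 and 50 h with D3, against 2345 and 2627 untreated. In LacZi cells they were 2491, 1930.4 and 1897 with D3, against 3083 and 2542 untreated. TYMS fell by 0.46 ± 0.08 (adjusted p = 0.0107), with the LacZi 8 h array again the one inside the untreated range. RRM2, the small reductase subunit, TK1, the thymidine salvage kinase, and DUT, the dUTPase, had differences of -0.22 ± 0.07, -0.29 ± 0.11 and -0.22 ± 0.07, none of which passed (adjusted p = 0.104, 0.18 and 0.0863).

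**Figure D2:**
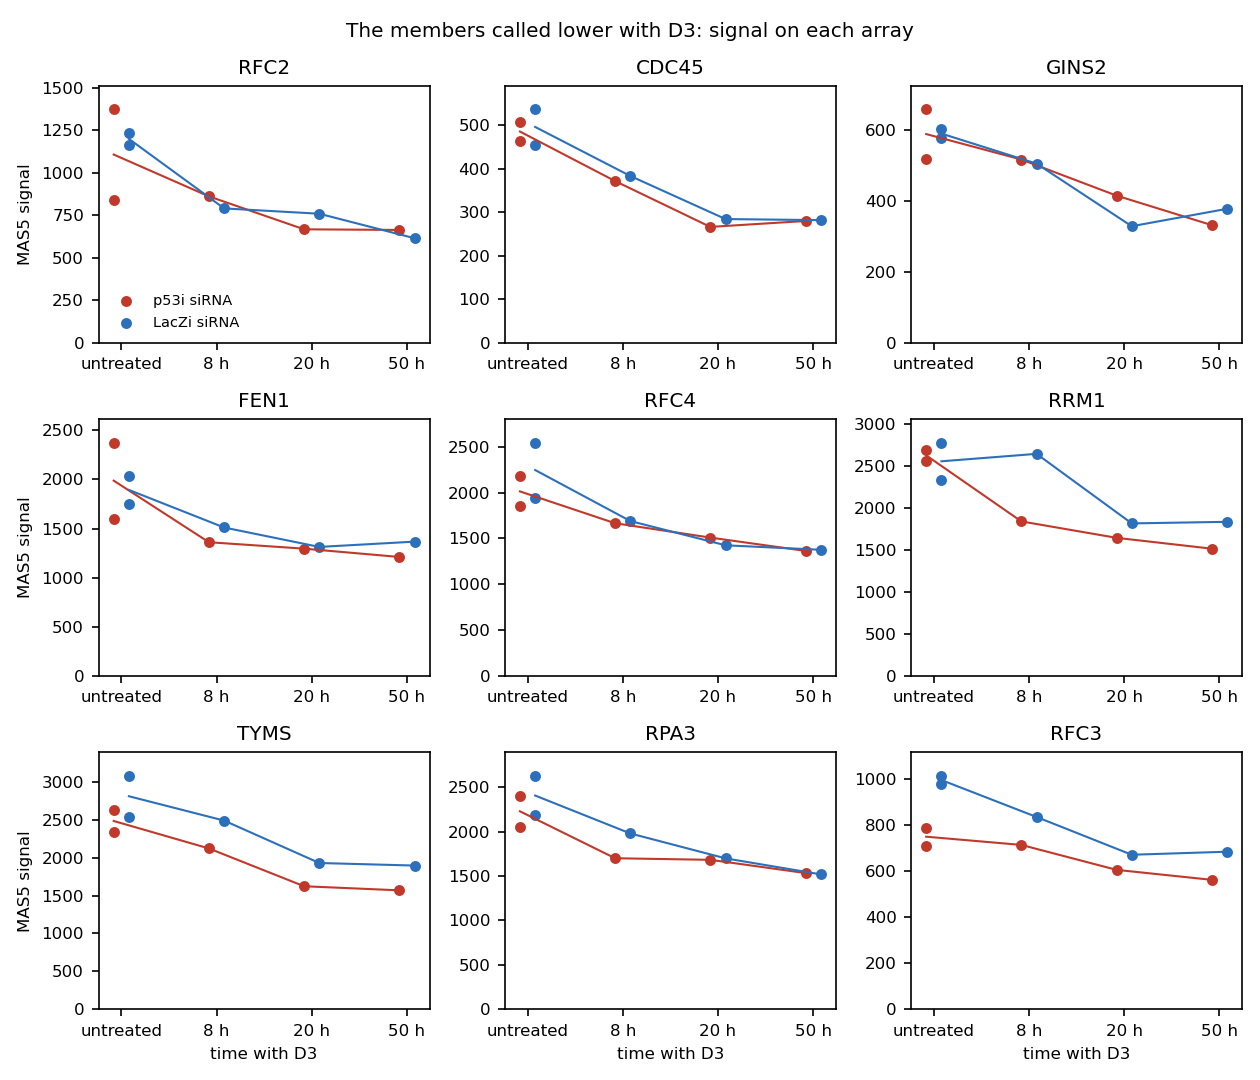
MAS5 signal (linear, from 0) on each array for the 9 members called lower with D3 over the 3 times, by time with D3 and coloured by siRNA, with lines through the group means. For CDC45, the D3 signals at 20 and 50 h lie between 266 and 284, below the untreated signals of 455 to 536.

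No polymerase or primase gene was called (0 of 8 by limma). The largest difference was that of PRIM1, the catalytic primase subunit. For PRIM1, the p53i arrays gave 205, 214 and 94.4 at 8, 20 and 50 h with D3 and 279 and 183 without it. The LacZi arrays gave 237, 178 and 213 with D3 and 356 and 298 without it. The PRIM1 difference of -0.53 ± 0.18 did not pass (adjusted p = 0.128), and the p53i array at 50 h was its lowest. PRIM2 had -0.52 ± 0.20, POLD3 -0.31 ± 0.10, POLA2 -0.30 ± 0.10 and POLA1 -0.21 ± 0.10. POLE, POLE2 and POLD1 had -0.08 ± 0.14, -0.05 ± 0.12 and 0.10 ± 0.13. At an unadjusted p under 0.05, PRIM1, PRIM2, POLD3 and POLA2 were lower.

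The genes upstream of replication did not pass the test. None of the 4 genes of cyclin E, CDK2 and CDC25A was called by limma, and CDK2 alone had an unadjusted p under 0.05. With D3, CDK2 measured 551, 458 and 493 in p53i cells in order of time, against 687 and 482 untreated. Its LacZi signals measured 494, 442 and 485 with D3, against 696 and 654 untreated. CDK2 had a difference of -0.35 ± 0.11 (adjusted p = 0.11), and the untreated p53i replicate 2 lay within its D3 range. CDC25A and CCNE1 had the highest differences of all members, 0.29 ± 0.15 and 0.19 ± 0.12 (adjusted p = 0.301 and 0.432). The CDC25A probe set read 488, 442 and 431 at the 3 D3 times in p53i cells, against 253 and 437 in the untreated pair. The LacZi arrays read 387, 400.4 and 277 with D3 and 295 and 329 untreated. Other CDC25A probe sets above the filter had -0.09 and 0.07. CCNE2 had 0.08 ± 0.12. The activator E2F genes E2F2, E2F3 and E2F1 had -0.30 ± 0.11, -0.25 ± 0.13 and -0.20 ± 0.13, and 0 of 3 were called by limma, with E2F2 alone under an unadjusted p of 0.05. E2F2 signals in p53i cells were 448, 441 and 379 at 8, 20 and 50 h with D3, against 428 and 533 untreated. In LacZi cells they were 394, 403 and 455 with D3, against 601 and 526 untreated. The E2F2 groups overlapped, since the untreated p53i replicate 1 read below 3 of the D3 arrays.

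Of the chromatin-linked genes, 0 of 4 were called by limma, with CHAF1B and SLBP under an unadjusted p of 0.05. CHAF1A and CHAF1B are subunits of the assembly factor that places histones on new DNA. For CHAF1B, the p53i arrays gave 206, 131 and 125 at 8, 20 and 50 h with D3 and 256 and 257 without it. The LacZi arrays gave 180.4, 170.3 and 187 with D3 and 224 and 174 without it. The low CHAF1B signals were those of p53i cells at 20 and 50 h, and its difference over both siRNAs was -0.42 ± 0.16 (adjusted p = 0.168). SLBP, which binds histone mRNA, had a small difference of -0.26 ± 0.08 (adjusted p = 0.0826) but no overlap between D3 and untreated arrays. CHAF1A and UHRF1, a reader of hemimethylated DNA, had -0.18 ± 0.13 and -0.16 ± 0.09.

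**Figure D3:**
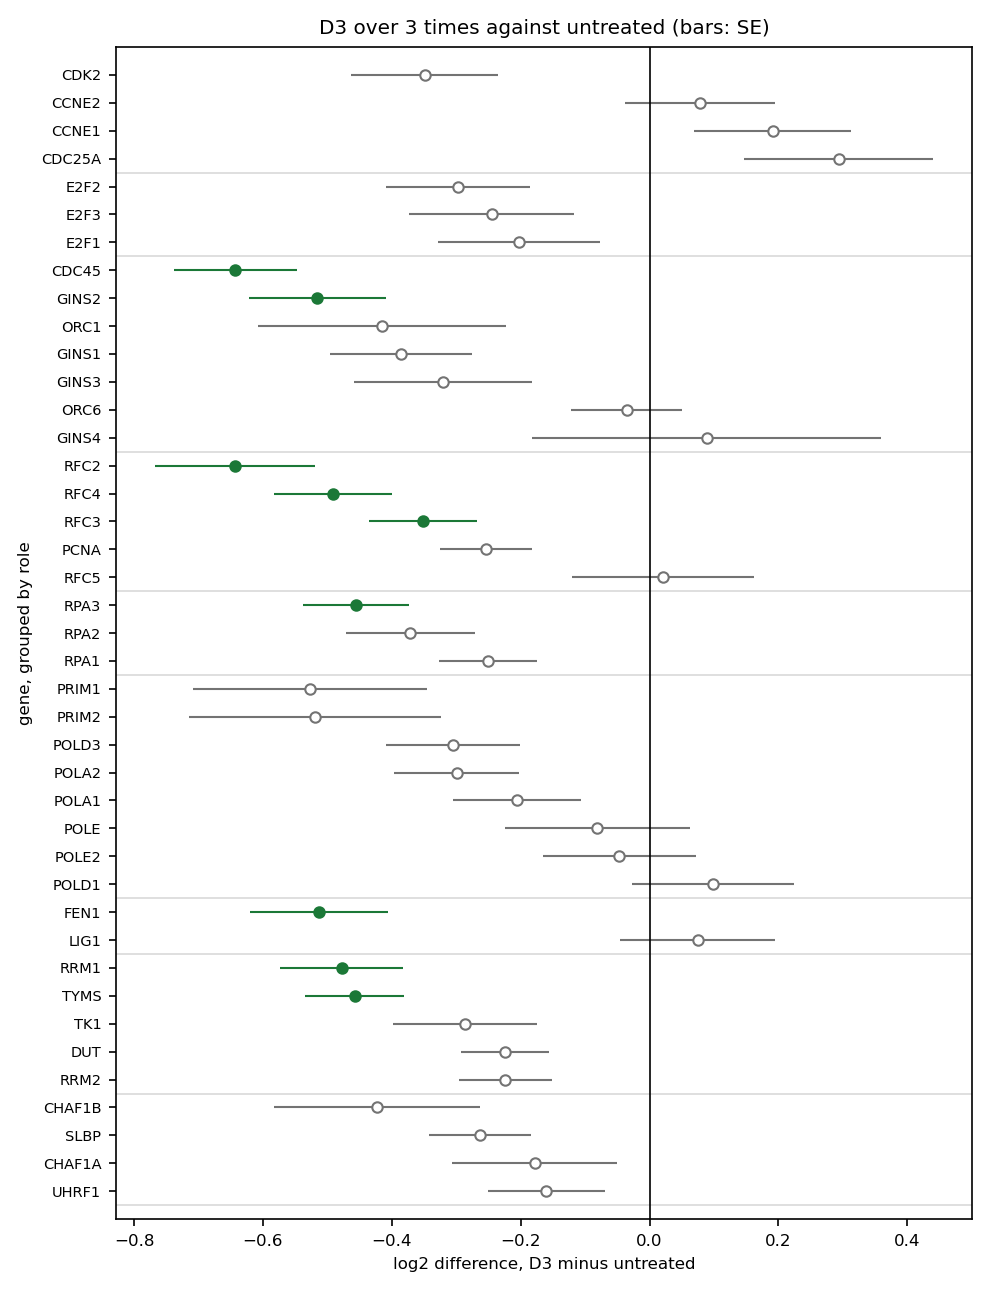
Log2 difference with D3 (mean of the 3 times) minus untreated for the 41 members, with siRNA as a term; bars are 1 SE, filled green points are the 9 called members and lines separate the roles. Called members lie between -0.64 and -0.35, and the largest positive difference is that of CDC25A.

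The number of calls depended on the model and on which arrays were kept. It was 1 without the intensity trend and 0 with 8 group means. With each array left out in turn, 2 to 13 members were called, with 2 (CDC45 and FEN1) without the untreated LacZi replicate 1, 3 without the LacZi array at 20 h and 13 without the untreated p53i replicate 2. CDC45 was called in 10 of 10 such fits, TYMS in 9, RFC4 and RPA3 in 8, RFC2 in 6, GINS2 in 5, FEN1 and RRM1 in 4 and RFC3 in 1, and every fit kept all 9 differences below 0. Without both untreated arrays numbered 1, FEN1 alone was called, and without both numbered 2, 17 members were. Those 17 included CDC25A and CCNE1, both higher with D3 there. With the ACTB ratio as a covariate, 13 members were called, and without the 2 arrays of highest ratio, 10. These counts are given without the share of all genes called in the same fit. They therefore do not show whether the members shifted apart from other genes.

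The differences were larger at 20 and 50 h than at 8 h. At 8 h, 0 of 41 members were called by limma (background 0.0333% lower and 0.141% higher), 8 were lower and 0 higher at an unadjusted p under 0.05 (background 3.89% and 3.61%), and the median difference was -0.18. At 20 h the median was -0.38, and 2 members, CDC45 with -0.80 ± 0.13 and TYMS with -0.57 ± 0.10, were called lower (limma adjusted p = 0.0183 and 0.032, background 0.233%). At 50 h the median was -0.29, and 10 members were called lower (background 2.48%), namely the same 9 and RPA2 with -0.55 ± 0.13 (adjusted p = 0.0434). At an unadjusted p under 0.05, 24 members were lower at 20 h and 20 at 50 h (background 7.75% and 11.6%), and 0 were higher (5.9% and 8.27%). None was called higher at either time (background 0.358% at 20 h and 1.83% at 50 h). The 50 h count was 0 when either 50 h array was left out, and the 20 h count was 0 without the untreated LacZi replicate 1 or either 20 h array.

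CDC45 stood at -0.36 ± 0.13, -0.80 ± 0.13 and -0.77 ± 0.13 at 8, 20 and 50 h. GINS2 stood at -0.20 ± 0.14, -0.65 ± 0.14 and -0.71 ± 0.14 in the same order. TYMS had -0.20 ± 0.10, -0.57 ± 0.10 and -0.61 ± 0.10. FEN1 was nearly as low at the first time, with -0.42 ± 0.14, -0.55 ± 0.14 and -0.57 ± 0.14. TK1 had -0.35 ± 0.15, -0.11 ± 0.15 and -0.40 ± 0.15, so its 20 h value was the nearest to 0. PCNA had -0.15 ± 0.10, -0.38 ± 0.10 and -0.24 ± 0.10, and was lowest at 20 h.

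The step between times was tested directly. For 50 h minus 8 h, 0 members were called by limma (background 0.025% lower and 0.108% higher), and 8 were lower and 0 higher at an unadjusted p under 0.05 (background 5.66% and 3.97%), namely CDC45, GINS1, GINS2, RFC3, RPA2, RRM1, RRM2 and TYMS. For 20 h minus 8 h, 0 were called among the members and among all genes, while 10 members (24.4%) were lower and 0 higher at an unadjusted p under 0.05, against 1.75% and 1.71% of all genes. For 50 h minus 20 h, 0 members were called and 0 had an unadjusted p under 0.05 in either direction, against 2.16% lower and 2.05% higher of all genes (0.00832% called lower and 0% higher). In 14 members, all 4 arrays at 20 and 50 h lay below the 4 untreated arrays and both 8 h arrays, against 2.63% of all genes, a pattern chosen after the values were seen. These were CDC45, GINS1, GINS2, PCNA, RFC2, RFC3, RFC4, RPA2, RPA3, POLA2, POLD3, TYMS, RRM1 and RRM2.

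The course was similar in direction within each siRNA. In p53i cells the members' median differences were -0.13, -0.30 and -0.34 at 8, 20 and 50 h, with 26, 35 and 34 of 41 below 0 (53.4%, 51.9% and 52.2% of all genes). In LacZi cells they were -0.20, -0.42 and -0.31, with 34, 35 and 35 of 41 below 0 (47.6%, 49.6% and 50% of all genes). The median of all genes lay between -0.02 and 0.01 on these 6 arrays. With the 3 times averaged, 1 member was called lower with D3 within p53i cells, RRM1 with -0.66 ± 0.12 (limma adjusted p = 0.0415, background 0.15%), and the count was 0 without any 1 of the 5 LacZi arrays or of the 3 p53i D3 arrays. Within LacZi cells 0 members were called (background 0.0499% lower and 0.341% higher). Some fits with arrays left out did call members within LacZi cells. The share of all genes called in those fits is not given, so the background above does not apply to them. At an unadjusted p under 0.05, 14 members were lower within p53i cells and 22 within LacZi cells, against 8.43% and 5.79% of all genes, and 0 were higher with either (6.7% and 6.09%). None was called higher within p53i cells (background 0.391%). At single times within 1 siRNA, where 1 array stood against an untreated pair, 0 members were called by limma (background 0% to 0.0499% in 1 direction, with 0.0166% higher in LacZi cells at 20 h). At an unadjusted p under 0.05, 1, 6 and 11 members were lower at 8, 20 and 50 h in p53i cells, against 2.31%, 3.25% and 7.25% of all genes. In LacZi cells 2, 17 and 10 members were lower, against 1.49%, 2.71% and 3.98%. LIG1 alone was higher, in p53i cells at 50 h, against backgrounds of 2.04%, 2.94% and 5.16% in p53i cells and 1.89%, 2.25% and 3.69% in LacZi cells.

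The siRNAs share no arrays, and 35 of 41 members had the same sign with both, 32 of them below 0, against 61.7% of all genes with the same sign. Across the 41 genes, which are not independent replicates, the differences within p53i and within LacZi had a Pearson r of 0.482, and across all genes 0.379. The difference between the responses was called in 0 members and 0 of all genes by limma, and 0 members had an unadjusted p under 0.05, against 2.35% higher and 3.02% lower of all genes. Its median, as p53i minus LacZi, was 0.0998 over the members and -0.0295 over all genes. It lay below 0 in 10 of 41 members (24.4%), against 6491 of 12022 genes. The members furthest from an equal response were GINS4, ORC1 and CHAF1B. CHAF1B had -0.71 ± 0.20 within p53i cells and -0.13 ± 0.20 within LacZi cells, a difference of -0.58 ± 0.28 (adjusted p = 0.893). ORC1 had -0.12 ± 0.25 within p53i cells and -0.71 ± 0.25 within LacZi cells, a difference of 0.60 ± 0.36 (adjusted p = 0.899). RRM1 had -0.66 ± 0.12 within p53i cells and -0.30 ± 0.12 within LacZi cells, a difference of -0.36 ± 0.17 (adjusted p = 0.893). CDC45 had -0.65 ± 0.14 and -0.63 ± 0.14 in the same order, a difference of -0.02 ± 0.20.

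**Figure D4:**
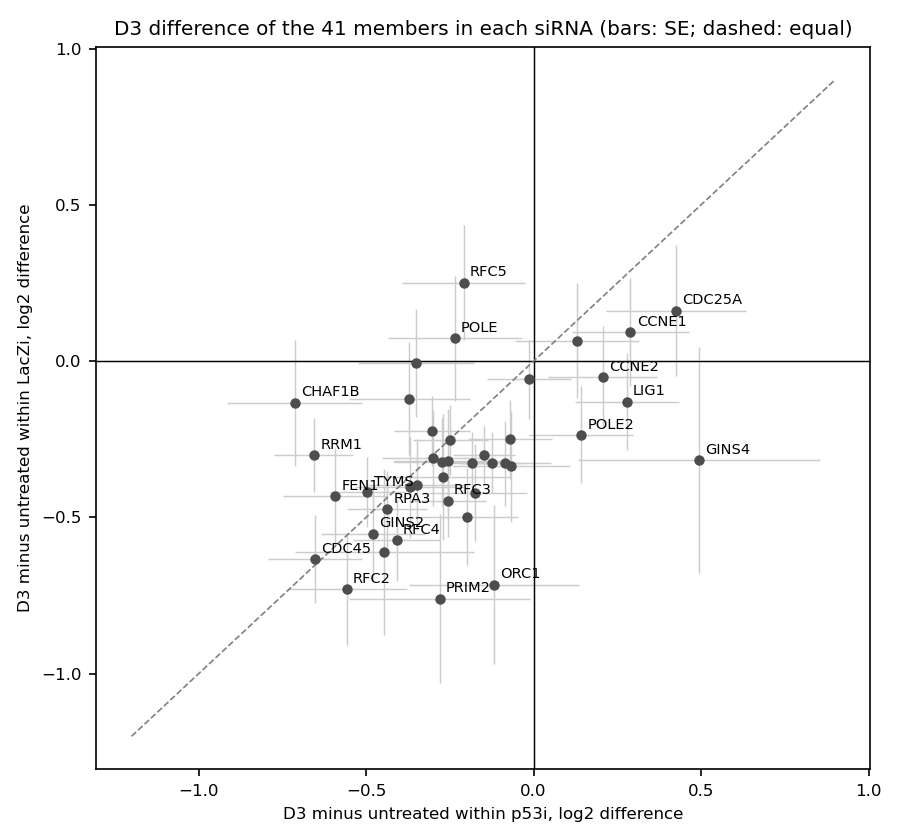
Log2 difference with D3 minus untreated within p53i cells (horizontal) and within LacZi cells (vertical) for the 41 members; bars are 1 SE and the dashed line marks equal responses. Of the points, 32 lie in the lower left part, and GINS4 and CHAF1B lie furthest from the line on opposite sides.

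Over all conditions, 0 of 41 members were called for p53i against LacZi by limma, while 3.39% of all genes were called higher and 3.11% lower. The members' median was -0.05, against -0.0049 over all genes. At an unadjusted p under 0.05, 4 members were higher and 7 lower in p53i cells (9.76% and 17.1%), against 11.7% and 11.2% of all genes. The 4 were TK1 with 0.37 ± 0.11, E2F1 with 0.31 ± 0.12, RPA1 with 0.19 ± 0.08 and DUT with 0.17 ± 0.07. Other probe sets of these genes above the filter had 0.10 for TK1, 0.205 for E2F1, -0.20 for RPA1, and 0.04 and 0.0035 for DUT. The 7 were PRIM1 with -0.40 ± 0.18, GINS3 with -0.33 ± 0.14, RPA2 with -0.30 ± 0.10, RFC3 with -0.29 ± 0.08, POLE2 with -0.26 ± 0.12, TYMS with -0.22 ± 0.08 and SLBP with -0.22 ± 0.08. The smallest limma adjusted p values were those of RFC3 (0.0559) and TK1 (0.0621).

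The TK1 signals of p53i cells were 2275, 2892 and 2354 with D3 and 3659.6 and 2426 untreated, against 1882, 2083 and 1712 with D3 and 2657 and 2087 untreated in LacZi cells. The p53i array was the higher one at each D3 time, but the untreated pairs overlapped. RFC3, whose signals are given above, was lower in p53i cells at each D3 time and in both untreated arrays, though p53i and LacZi arrays overlapped across conditions. In 0 members did all 5 p53i arrays lie below or above all 5 LacZi arrays, against 3.3% and 3.09% of all genes. The p53i value lay below the LacZi value in 4 of 4 matched conditions in 6 members (14.6%, background 16.6%), E2F3, CDC45, RFC3, RPA2, TYMS and SLBP. It lay above in 5 members (12.2%, background 15.9%), CDC25A, E2F1, RPA1, TK1 and DUT. The ACTB ratio was higher in p53i cells than in LacZi cells, as given above, and with it as a covariate 0 members were called as well. With the upper 25% of probe sets RFC3 was called, and some fits with untreated arrays left out called TK1 or TYMS. The share of all genes called in these fits is not given, so such calls may not be particular to the members.

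**Figure D5:**
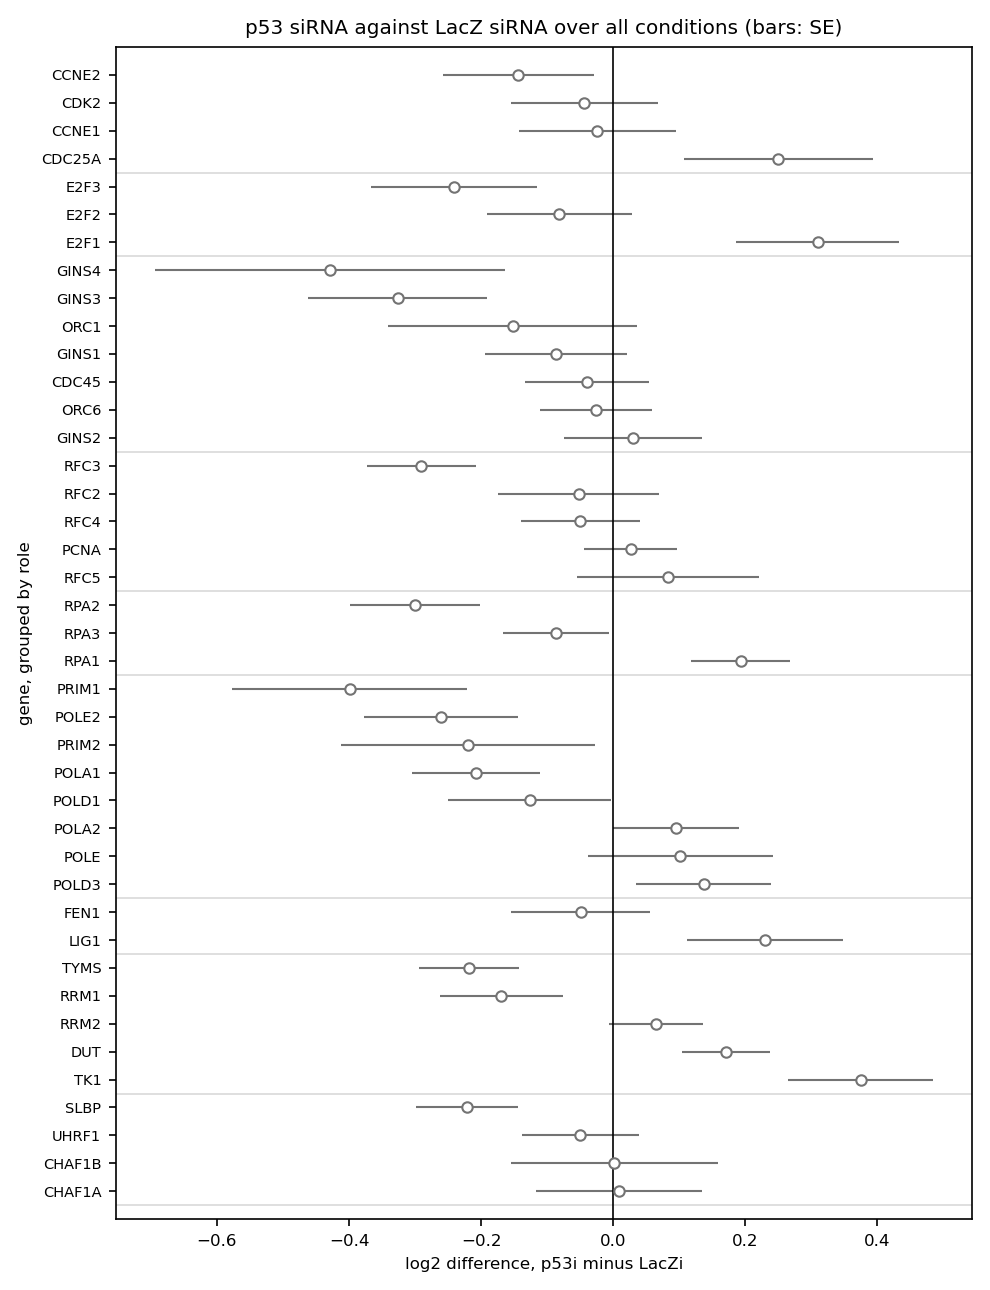
Log2 difference of p53i minus LacZi over all conditions for the 41 members, grouped by role; bars are 1 SE and no point is filled because no member was called. Points lie on both sides of 0, between -0.43 for GINS4 and 0.37 for TK1.

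Without D3, 0 members were called for p53i against LacZi by limma (background 0.00832% higher and 0% lower), and 2, POLE2 with -0.49 ± 0.18 and RFC3 with -0.40 ± 0.16, were lower and 0 higher at an unadjusted p under 0.05 (background 5.11% and 6.35%). The members' median was -0.11, against 0.0099 over all genes, and 28 of 41 members lay below 0, against 5846 of 12022 genes. With D3, 0 were called (background 0.349% higher and 0.291% lower). The median was -0.03, against -0.011 over all genes, and 23 of 41 members lay below 0, against 6223 of 12022 genes. At an unadjusted p under 0.05, 4 members were higher and 3 lower with D3 (7.3% and 8.28% of all genes). The 4 were E2F1 with 0.42 ± 0.16, TK1 with 0.40 ± 0.15, LIG1 with 0.39 ± 0.14 and DUT with 0.23 ± 0.08. The 3 were RRM1 with -0.31 ± 0.11, TYMS with -0.25 ± 0.10 and SLBP with -0.25 ± 0.10. At 8, 20 and 50 h the median p53i difference over the members was 0.03, -0.01 and -0.08, against -0.0244, 0.003 and -0.0026 over all genes.

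Other genes of the same pathway were followed on 5 lists. Of their 66 measured genes, 6 were called lower with D3 (9.09%) and 0 higher, against 2.41% and 1.99% of all genes. Of 14 other origin licensing and firing genes, 2 were called lower with D3, CDT1, which loads the helicase, with -0.68 ± 0.17 (limma adjusted p = 0.0415) and its inhibitor GMNN with -0.47 ± 0.07 (adjusted p = 0.00418). The CDT1 groups overlapped, since the p53i array at 8 h read 409.8 and the untreated p53i replicate 1 read 406, while the untreated LacZi replicate 1 stood highest at 760.1. With D3, GMNN measured 1845, 1677 and 1559 in p53i cells in order of time, against 2260.3 and 2390.3 untreated. Its LacZi signals measured 1859, 1562 and 1568 with D3, against 2398 and 2222 untreated. GMNN had no overlap between D3 and untreated arrays. Of 14 other polymerase, loader and fork genes, 3 were called lower, DSCC1, a subunit of an alternative clamp loader, with -0.48 ± 0.08, RNASEH2A, a ribonuclease that removes RNA from DNA, with -0.45 ± 0.11, and TIMELESS, of the fork protection complex, with -0.39 ± 0.10 (adjusted p = 0.0108, 0.0473 and 0.0415). Of 12 measured genes of nucleotide synthesis, 1 was called lower, the deoxycytidine kinase DCK, with -0.55 ± 0.14 (adjusted p = 0.0421). Of 14 measured genes of RB, DREAM and other E2F factors, 0 were called by limma and 1 was lower at an unadjusted p under 0.05. Of 12 other measured E2F targets, 0 were called while 10 were lower and 0 higher at an unadjusted p under 0.05, against 10.9% and 8.51% of all genes, with a median of -0.32.

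For p53i against LacZi, 1 of the 66 measured genes of these lists was called higher (1.52%) and 4 lower (6.06%), against 3.39% and 3.11% of all genes. SAMHD1, which breaks down deoxynucleotides, was higher in p53i cells by 0.76 ± 0.12 (limma adjusted p = 0.00567). Its signals in p53i cells were 394, 518 and 591 with D3 and 504 and 503 untreated, against 323, 314 and 246 with D3 and 296 and 270.5 untreated in LacZi cells, with no overlap. POLE3, an accessory subunit of polymerase epsilon, fell by 0.62 ± 0.10 (adjusted p = 0.00571). Its signals were 517, 472 and 446 with D3 and 595 and 445 untreated in p53i cells, against 773, 684 and 671 with D3 and 786 and 927 untreated in LacZi cells, again with no overlap. E2F8, a repressor E2F, the E2F partner TFDP1 and the purine synthesis enzyme PAICS were lower, with differences of -0.48 ± 0.13, -0.43 ± 0.09 and -0.44 ± 0.09 (adjusted p = 0.0491, 0.017 and 0.0182). The remaining genes of these lists did not pass for p53i.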

How the data were processed

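RNA of 10 SKBR3 samples was hybridised to 1-colour Affymetrix arrays. The deposited table holds 1 linear intensity per probe set and array; these are MAS5 signals, per the submitters' processing notes (software version: not given in the sources used here). Each array had a 2% trimmed mean of 200.0, so the authors had scaled the deposited intensities, and no further normalization was applied. Of 54675 probe sets, 41097 carried 1 gene symbol in the platform annotation, 1801 several and 11777 none, and only the first kind was named.

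Intensities were converted to log2(signal + 16), which understates the changes of dim genes, and probe sets in the upper 50% by mean (signal above 35.4) were kept. The test was limma 3.58.1 under R 4.3.3 (two-sided, intensity trend), with Benjamini-Hochberg adjustment over 12022 genes and a threshold of 0.05. D3 and p53i effects were fitted additively, as siRNA plus D3 time (5 residual degrees of freedom), effects within 1 siRNA from a model with a siRNA-by-D3 term (4 degrees), and single conditions from 8 group means (2 degrees), where a lone array is assumed to vary like the others. Untreated arrays are labelled as biological replicates, and nothing states separate cultures for the D3 arrays, so p-values reflect only the spread among these arrays, which may be technical. The number of arrays limits the precision.

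The members and lists were chosen with earlier results of these data known. Values in every array are given for the called members, the member with the largest D3 difference in each role, and CYP24A1 as a range. Those of CDC25A, LIG1, TK1, GMNN, SAMHD1 and POLE3 were added after their values were seen. Promoters came from a RefSeq table. The tests were checked on simulated data. Alternatives covered the normalization, offset, filter, probe-set choice, trend, replicate block, group means, ACTB ratio and each array left out. Some genes of the lists are not reported here.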

Additional observations from a re-analysis of the deposited data

Results flagged for a closer look

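For 2 members, CCNE2 and GINS4, each of the 3 p53i arrays with D3 lay above the mean of the untreated p53i pair. Each of the 3 LacZi arrays with D3 lay below that of the untreated LacZi pair. The share of all genes with this pattern was not computed, so the count says nothing particular about the members. CCNE2 hardly moved in LacZi cells, with -0.02, -0.02 and -0.11 at 8, 20 and 50 h, against 0.44, 0.04 and 0.14 in p53i cells. The response in p53i minus that in LacZi was 0.26 ± 0.23 for CCNE2 and 0.81 ± 0.51 for GINS4 on the log2 scale (SE), and neither passed limma's test of that difference (adjusted p = 0.944 and 0.91). The untreated p53i arrays of GINS4 lay 1.23 apart on the log2 scale.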

How the results depend on the processing

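The main counts were 9 members for D3 over 3 times, 2 at 20 h, 10 at 50 h, 1 within p53i and 0 for the other tests. Without filter, 1 was called at 20 h and 0 within p53i, as with probe-set means. Without intensity trend the counts were 1 over 3 times, 0 at 20 h, 1 at 50 h and 0 within p53i. With 8 group means, 0 were called over 3 times. The labels do not say that the replicate numbers pair the untreated arrays, and with 2 pairs the data cannot settle it: replicate 2 minus replicate 1 correlated between the siRNAs with r = 0.216 over all genes and 0.461 over the members. With the replicate number as a block, 14 were called over 3 times, 10 at 20 h, 4 within LacZi, 6 within p53i, 2 for p53i over all conditions (RFC3 and TK1), 1 for p53i with D3 and 15 at single times within 1 siRNA. The upper 25% of probe sets gave 1 for p53i over all conditions. Chosen after seeing the data, the ACTB covariate gave 6 at 20 h and 5 within p53i, and leaving out the 2 arrays of highest ratio gave 0 at 20 h, 1 within LacZi and 0 within p53i. Without both untreated arrays numbered 2, a choice also made after seeing the data, 17 were called over 3 times, 4 at 8 h, 13 at 20 h, 5 within LacZi, 9 within p53i, 2 for p53i and 1 for p53i with D3. Without both numbered 1 the counts were 1 over 3 times, 1 at 20 h, 4 at 50 h, 1 within LacZi, 3 within p53i, 1 for p53i and 1 for p53i with D3. With each array left out they ran from 2 to 13 over 3 times, 0 to 8 at 20 h, 0 to 14 at 50 h, 0 to 3 within either siRNA and 0 to 1 for p53i. The cause of these shifts was not tested. Counts under the alternatives are given without the share of all genes called in the same fit, so a shift may not be particular to the members. The members' median ran from -0.31 to -0.23 for D3 and stayed below 0 for p53i in every alternative run. The sign held in all alternatives for 33 of 41 members for D3 and 22 of 41 for p53i. Differences as small as those between untreated replicates (median 0.22 in p53i cells and 0.12 in LacZi cells) are not resolved by single arrays.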

Other observations

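Of the 37 further probe sets of the members, 24 in 18 members lay above the filter. Their D3 difference had the sign of the probe set used in 17 of 24, and the exceptions were those of CDC25A, E2F1, E2F3, GINS2, POLA2 and RFC5. Their p53i difference had the same sign in 17 of 24, with exceptions in CDC25A, POLA2, RFC2, RFC5, RPA1 and RRM2. Averaging all probe sets of a gene moved the D3 difference of GINS2 to -0.01, that of TYMS to -0.16 and that of RFC3 to -0.30. For these genes the average also took in a probe set below the filter.

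Between the untreated replicates, replicate 2 lay below replicate 1 in 25 of 41 members in p53i cells and in 28 of 41 in LacZi cells. The median of replicate 2 minus replicate 1 was -0.0665 in p53i cells and -0.0681 in LacZi cells over the members. Over all genes it was 0.0231 and -0.0068. The member with the widest gap was GINS4 in p53i cells, with 1.23 on the log2 scale, and E2F3 in LacZi cells, with 0.55.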
